A study of Mus musculus with 6 samples.

Results

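A set of 10 genes of matrix breakdown was followed in macrophages sorted from mouse tumours: the secreted matrix metalloproteinases Mmp8, Mmp9, Mmp12, Mmp13 and Mmp19, the membrane-bound Mmp14, their inhibitors Timp1 and Timp2, the surface protease Adam8 and the plasminogen activator Plau. They were chosen by symbol from the 21878 genes of the count table. All 10 were present and all 10 had enough reads to be tested. The study set tumour-associated macrophages without TRMT61A against macrophages with it, and measured RNA by sequencing of polyadenylated transcripts. TRMT61A is the catalytic subunit of an enzyme that methylates adenosine in tRNA. The 3 KO libraries came from mice with floxed Trmt61a alleles and LysmCre, a Cre recombinase made in myeloid cells from the lysozyme M locus. The 3 WT libraries came from mice that carried the floxed alleles without the Cre, so the controls lack the Cre as well as the deletion. All mice bore MC38 tumours, made from a mouse colon carcinoma line, and the cells were collected 14 days after injection. The sources used here give no strain, age, sex, sorting gate or floxed exons. Nor do they tie each library to a mouse of its own, so the p-values cover the spread among these 6 libraries, part of which may be technical.

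Matrix metalloproteinases are zinc enzymes that cut collagens, elastin and other proteins around cells, and most are made as inactive precursors. The tissue inhibitors encoded by the Timp genes bind the active enzymes and block them. Plasmin, which the product of Plau releases from plasminogen, can activate several of the precursors. In tumours, macrophages are known as one source of these proteases, and neutrophils and fibroblasts are others.

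Libraries held 18839026 to 20313597 counts in KO and 19622763 to 20247004 in WT. Trmt61a itself was at 2.13, 1.73 and 2.46 CPM (counts scaled to a common library total by TMM factors) in KO replicates 1, 2 and 3, against 8.01, 6.95 and 7.38 CPM in WT replicates 1, 2 and 3. It fell in KO (log2 fold change -1.81, SE 0.197, edgeR adjusted p = 0.0426), and each library matched its label, although the call is lost when any 1 of 5 of the 6 libraries is left out, and kept without KO replicate 2. The summed CPM of 10 macrophage markers ran from 13834 to 15444 in KO and from 14706 to 16241 in WT. Of these markers 7 had negative log2 fold changes and 3 positive ones, with a median of -0.10, and 2, C1qa and C1qc, were lower at an unadjusted p under 0.05. For C1qa, C1qb and C1qc every KO library lay below every WT library. Of 8 epithelial markers only Cdh1 exceeded 1 CPM in any library, and Epcam was at 0.415 CPM or less. Neutrophil markers other than the genes described here summed to 56.4, 101 and 62.5 CPM in KO and to 76.3, 52.0 and 60.1 CPM in WT. In these bulk samples, fewer cells of a type and less RNA per cell cannot be told apart.

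None of the 10 genes passed at an adjusted p under 0.05 with edgeR, where 0.0165% of the 12136 tested genes passed, all of them lower (0% higher). A total of 4 protease genes, Mmp19, Adam8, Mmp8 and Mmp9, were higher in KO at an unadjusted p under 0.05, and 0 of the 10 were lower at that level. Over all tested genes, 3.86% were higher at that level and 3.06% lower. For Mmp8, Mmp19 and Adam8 every KO library lay above every WT library, a pattern that 6.11% of the tested genes had. The reverse, which 6.3% of the tested genes had, was seen for 0 of the 10. The log2 fold changes were positive for 7 of the 10 genes and negative for 3, with a median of 0.20, against a median of -0.00088 over all tested genes. Without WT replicate 1 the median of the 10 was 0.093, and without KO replicate 2 the number at an unadjusted p under 0.05 was 2. DESeq2 called 1 of the 10, Mmp19, as higher, where 0.0545% of 14673 genes passed in that direction, and limma-voom called 0 with or without quality weights. The genes were chosen with earlier results of these data known, so these shares describe them and are not independent evidence.

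**Figure D1:**
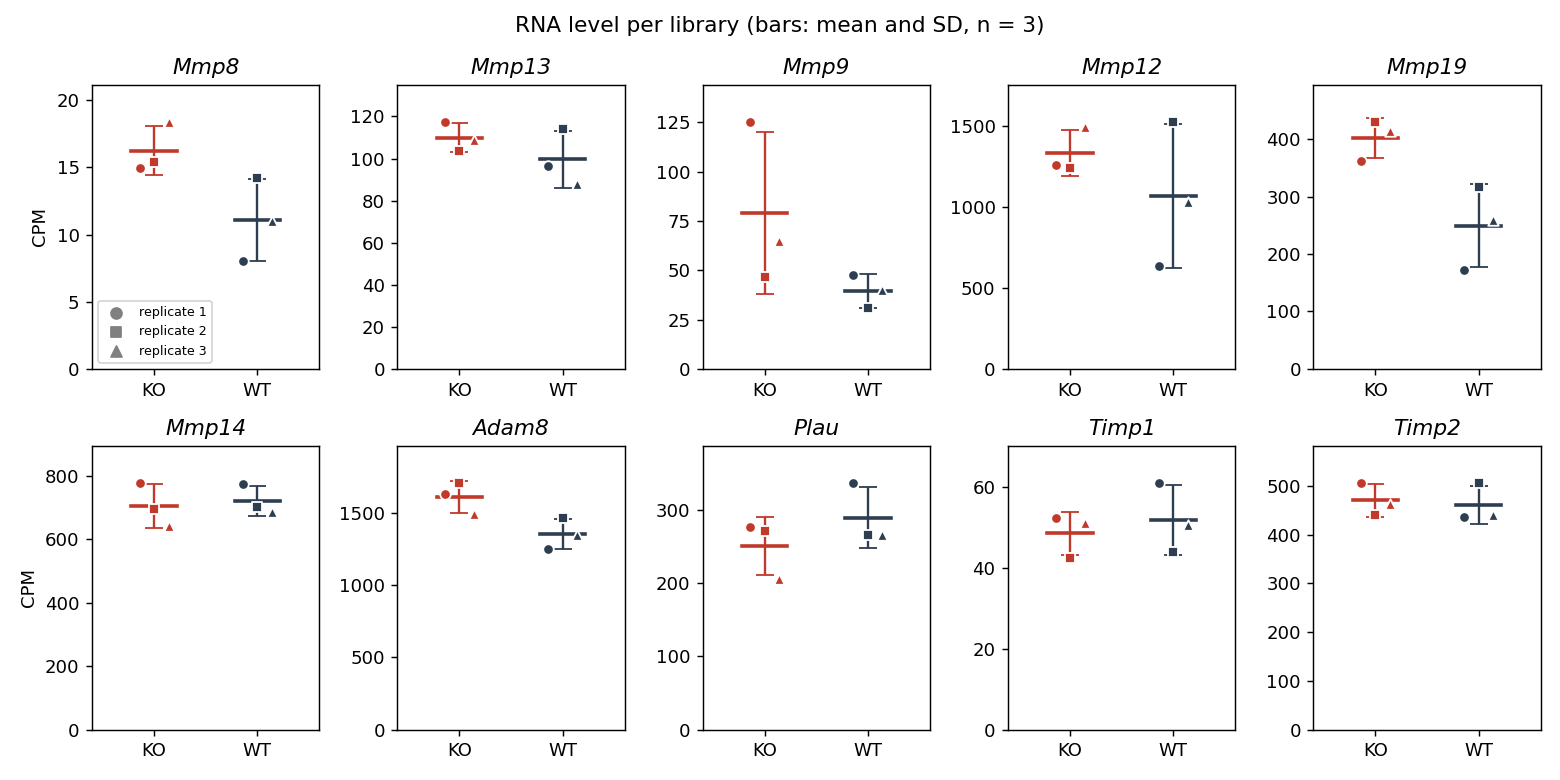
RNA level of each of the 10 genes in CPM (linear axes from 0), with KO on the left and WT on the right of each panel. Each symbol is 1 library (circle, square and triangle for replicates 1, 2 and 3) and the bars are the mean and SD of 3. The groups do not overlap for Mmp8, Mmp19 and Adam8, and Mmp9 is set apart in KO replicate 1 at 125 CPM.

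The 10 genes span a wide range of levels. Per kb of transcript, Adam8 was the most abundant at a mean of 476 CPM per kb over the 6 libraries, followed by Mmp12 at 333 and Mmp14 at 274 CPM per kb. Timp2 (125 CPM per kb), Plau (115) and Mmp19 (95.8) formed a middle group. Timp1 (56.9), Mmp13 (39.2), Mmp9 (18.7) and Mmp8 (5.64 CPM per kb) were lowest. Neighbours in this order overlapped in their ranges over the libraries except at 3 steps: Mmp14 above Timp2, Timp1 above Mmp13, and Mmp9 above Mmp8. Adam8 was nevertheless above Mmp12 within each of the 6 libraries, as was Mmp13 above Mmp9. The lengths are those of the longest principal transcript in GENCODE M21, and with all annotated exons counted Mmp14 (119 CPM per kb) came level with Timp2 (119 CPM per kb). By CPM, without length, Adam8 stood at percentile 99.5 of tested genes and Mmp8 at percentile 35.1.

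**Figure D2:**
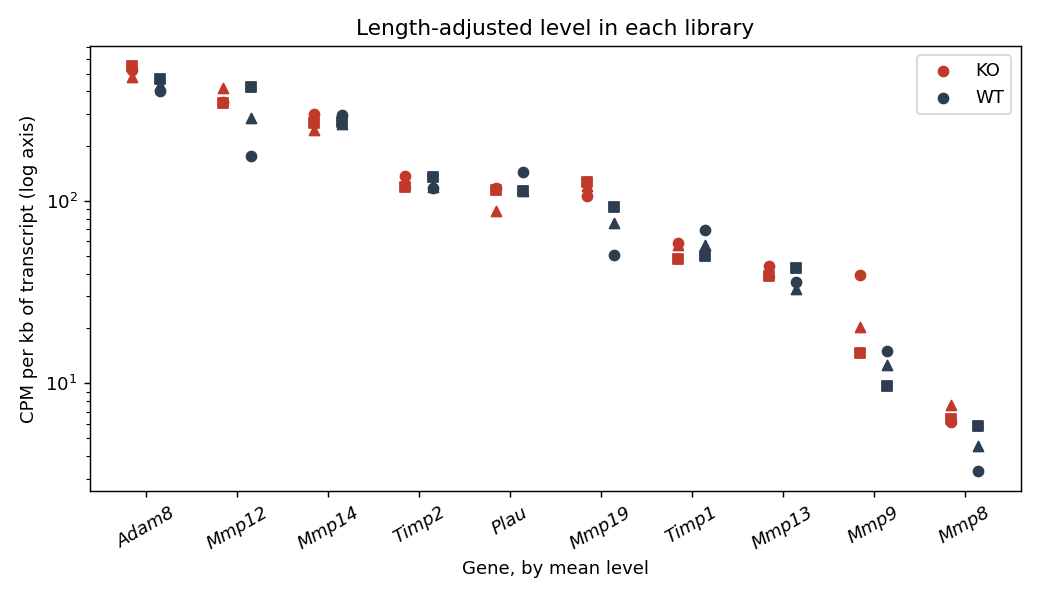
Level per kb of transcript on a log axis, with genes ordered by their mean. Each symbol is 1 library (circle, square and triangle for replicates 1, 2 and 3), with KO to the left of WT for each gene. Mmp12 and Mmp19 spread most widely within WT, and Mmp9 within KO.

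Mmp13, Mmp12 and Mmp8 belong to a cluster of 10 metalloproteinase genes within 427 kb of chromosome 9 (7272514 to 7699585, GRCm38, the assembly that mm10 names). Mmp12 encodes macrophage elastase, Mmp13 encodes a collagenase, and Mmp8 encodes the collagenase best known from neutrophils. Together these 3 held 99.9% of all counts in the cluster. Of the other 7 cluster genes, Mmp10 averaged 1.13 CPM and Mmp27 0.571 CPM. Mmp3 had 13 counts over the 6 libraries, Mmp1b had 1, and Mmp1a, Mmp20 and Mmp7 had 0. RNA levels in the cluster were therefore uneven between neighbours. Mmp12 shares its end with Mmp1b on the opposite strand, and that gene had at most 1 count in a library.

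The bases upstream of the annotated starts of these 3 genes are shown because they lie in the same cluster and yet differ in level and in their pattern over the libraries. The sequences are from RefSeq (GRCm38.p6, plus strand), 250 bases ending at the base before the start, 5′ to 3′. Capitals mark TGANTCA, which AP-1 factors bind and which reads the same on both strands, and AGGAAG on either strand (CTTCCT on the other), a core of sites for ETS factors.
Mmp13, chr9:7272264-7272513: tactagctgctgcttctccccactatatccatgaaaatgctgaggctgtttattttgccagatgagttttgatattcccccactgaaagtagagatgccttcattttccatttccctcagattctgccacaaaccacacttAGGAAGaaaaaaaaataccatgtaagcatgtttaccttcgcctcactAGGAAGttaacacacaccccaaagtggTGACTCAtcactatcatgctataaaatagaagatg
Mmp12, second start, chr9:7347124-7347373: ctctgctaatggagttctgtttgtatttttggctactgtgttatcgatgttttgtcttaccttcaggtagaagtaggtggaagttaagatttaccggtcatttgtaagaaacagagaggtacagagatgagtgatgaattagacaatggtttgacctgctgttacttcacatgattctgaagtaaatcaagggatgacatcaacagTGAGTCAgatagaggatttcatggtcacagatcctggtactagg
Mmp8, chr9:7558179-7558428: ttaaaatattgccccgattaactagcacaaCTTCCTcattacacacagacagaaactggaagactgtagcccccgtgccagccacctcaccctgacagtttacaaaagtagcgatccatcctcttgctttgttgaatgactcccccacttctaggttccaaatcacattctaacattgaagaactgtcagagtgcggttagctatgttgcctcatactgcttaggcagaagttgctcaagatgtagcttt
TGANTCA begins 35 bases before the start of Mmp13 and 44 bases before the second start of Mmp12, and the window of Mmp8 holds none. The window at the first start of Mmp12 (chr9:7344147-7344396) is not printed, and it has AGGAAG and no TGANTCA. The second start, whose window is printed, lies inside the gene, which begins at 7344381. Of all 32851 windows of this length 6.75% hold TGANTCA and 29.5% hold AGGAAG. Windows were found for 7 of the 10 genes, and TGANTCA was in those of 2 genes and AGGAAG in those of 5. The motifs did not overlap each other. These matches describe letters and not bound sites.

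Mmp12 (NCBI Gene 17381, chromosome 9, 7344381 to 7369499, plus strand) had 1263, 1242 and 1498 CPM in KO replicates 1, 2 and 3, against 638, 1526 and 1033 CPM in WT replicates 1, 2 and 3. The groups overlapped, since WT replicate 2 was the highest of the 6 libraries and WT replicate 1 the lowest. The coefficient of variation was 10.7% in KO and 41.8% in WT, the widest among the 10 genes in WT. Mmp12 had a log2 fold change of 0.32 (SE 0.270, edgeR adjusted p = 0.814). That value was 0.063 without WT replicate 1 and 0.68 without WT replicate 2.

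For Mmp13 (NCBI Gene 17386, chromosome 9, 7272514 to 7283331, plus strand) the levels were 117, 104 and 109 CPM in KO and 96.5, 114 and 88.0 CPM in WT, by replicate number. The ranges overlapped through WT replicate 2. Mmp13 had a log2 fold change of 0.14 (SE 0.0993, edgeR adjusted p = 0.786), and its range with 1 library left out was 0.060 to 0.26.

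Mmp8 (NCBI Gene 17394, chromosome 9, 7558456 to 7568485, plus strand) had 14.96, 15.4 and 18.4 CPM in KO against 8.06, 14.2 and 11.0 CPM in WT. These rest on 288, 294 and 373 reads in KO and on 158, 282 and 221 reads in WT. Each KO library was above each WT library, by a narrow margin between KO replicate 1 and WT replicate 2. For Mmp8 the fitted log2 value was 0.55 (SE 0.190, edgeR unadjusted p = 0.0169, adjusted p = 0.701), and 0.37 without WT replicate 1. Among neutrophil-defining transcripts, Ly6g had 3 reads in 1 library and 0 in the others, and Camp 4 reads over the 6. S100a8 was at 5.30, 11.1 and 6.60 CPM in KO and 4.23, 6.20 and 3.79 CPM in WT. Ltf, which encodes the granule protein lactoferrin, was at 0.675, 0.892 and 1.23 CPM in KO and 0.255, 0.353 and 0.150 CPM in WT. Its groups did not overlap (log2 1.87, SE 0.487, edgeR unadjusted p = 0.00339, adjusted p = 0.694). KO replicate 2 had the highest neutrophil sum, 101 CPM, of which Csf3r made up 60.3 CPM. Mmp8 was highest in KO replicate 3. Of the neutrophil markers, Ltf, Ngp, Camp and Ly6g were also highest in KO replicate 3. S100a8, S100a9, Cxcr2, Csf3r, Padi4 and Stfa2l1 were highest in KO replicate 2, and the rest in other libraries. Of 8 tested neutrophil markers 6 had positive log2 fold changes, with a median of 0.27, and 2, Ltf and S100a8, were higher at an unadjusted p under 0.05. The part of neutrophil RNA in the Mmp8 result was not tested.

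Mmp9 (NCBI Gene 17395, chromosome 2, 164940780 to 164955850, plus strand) encodes gelatinase B, which cuts denatured collagen and basement membrane collagen. Mmp9 levels were 125, 46.8 and 64.8 CPM in KO replicates 1, 2 and 3, against 47.7, 30.7 and 40.2 CPM in WT replicates 1, 2 and 3. KO replicate 1 held more than any other library, while KO replicate 2 lay just under WT replicate 1, so the groups overlapped. The coefficient of variation was 52.0% in KO and 21.4% in WT. Its log2 fold change of 0.997 (SE 0.352, edgeR unadjusted p = 0.0243, adjusted p = 0.703) was the largest of the 10 genes with all 6 libraries, and it was 0.50 without KO replicate 1. In KO replicate 1 the neutrophil markers summed to 56.4 CPM, the lowest of the KO libraries and within the range of the WT libraries, 52.0 to 76.3 CPM. Lcn2, whose neutrophil product binds the Mmp9 protein, was at 0.735 CPM or less in every library. Csf3r made up 32.7 of the 56.4 CPM in KO replicate 1. The part of neutrophil RNA in the Mmp9 result was not tested.

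Timp1 (NCBI Gene 21857, chromosome X, 20870166 to 20874735, plus strand) encodes an inhibitor that also binds the precursor of the Mmp9 protein. It was at 52.2, 42.5 and 51.0 CPM in KO and 61.0, 44.0 and 50.6 CPM in WT. The groups overlapped almost entirely (log2 -0.095, SE 0.126, edgeR adjusted p = 0.879), and the value was 0.041 without WT replicate 1. Timp1 lies inside Syn1, which runs on the opposite strand and averaged 8.63 CPM.

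Set against each other within a library, which needs no scaling, Mmp9 reads per Timp1 read were 2.40, 1.10 and 1.27 in KO and 0.781, 0.699 and 0.795 in WT. All KO libraries were thus above 1 and all WT libraries below it. The ratio takes no account of length (3.175 kb for Mmp9, 0.883 kb for Timp1), so 1 does not mark equal transcript numbers. Per kb of transcript, Mmp9 was at most 39.4 CPM in any library and Timp1 at least 48.1 CPM. The log2 ratio averaged 0.58 ± 0.60 in KO and -0.40 ± 0.10 in WT (SD, 3 libraries each). Its difference was 0.98, with a two-sided exact permutation p of 0.1, the smallest that 3 libraries against 3 allow, and 0.2 adjusted over the 2 ratios tested. Without KO replicate 1 the difference was 0.64.

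Mmp19 (NCBI Gene 58223, chromosome 10, 128790910 to 128800824, plus strand) encodes a secreted metalloproteinase that cuts basement membrane components. It had 363, 430 and 414 CPM in KO replicates 1, 2 and 3, against 173, 316 and 259 CPM in WT replicates 1, 2 and 3. The lowest KO library stood above the highest WT library, and WT replicate 1 was far under the other 5. Of the 10 genes it had the smallest p, ranking 126 of 12136 tested genes (log2 0.69, SE 0.196, edgeR unadjusted p = 0.00799, adjusted p = 0.701). The mean in KO was 1.61 times that in WT. With DESeq2 it passed (adjusted p = 0.0368), and over all alternatives its adjusted p ran from 0.0368 to 0.999. The log2 fold change was 0.49 without WT replicate 1 and 0.90 without WT replicate 2. Tmem198b overlaps the end of Mmp19 on the opposite strand and averaged 21.1 CPM (log2 0.26). The strand setting of the counting was not given, so reads of the pair cannot be told apart there.

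The genes whose pattern over the 6 libraries was most like that of Mmp19 were Fam179b, Klf2 and Mtmr10, out of 8575 genes with a mean of at least 10 CPM. Pearson r of log2 CPM was 0.997, 0.994 and 0.993 for Fam179b, Klf2 and Mtmr10, and Spearman rho was 1 for each. With WT replicates 1 and 3 left out, the libraries farthest from the median, r was 0.977, 0.982 and 0.937. These 3 genes were picked by r over all 6 libraries, so these values are no separate check of the likeness. Nor do they compare directly with r for genes not picked that way. Klf2, a transcription factor gene that responds to handling of cells, was at 223, 245 and 232 CPM in KO and 132, 205 and 167 CPM in WT. With 6 libraries such values of r describe these libraries only, and the points share the genotype difference. Mmp8 ranked 32 by the same measure (r = 0.969), Adam8 197 (0.901) and Mmp12 281 (0.874). With WT replicates 1 and 3 left out, r was 0.680 for Mmp8, 0.560 for Adam8 and -0.450 for Mmp12. Spearman rho over the 6 libraries was 0.943 for Mmp8, 0.943 for Adam8 and 0.486 for Mmp12. The likeness of Mmp12 to Mmp19 thus rests on those 2 libraries, and that of Mmp8 and Adam8 was weaker without them.

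**Figure D3:**
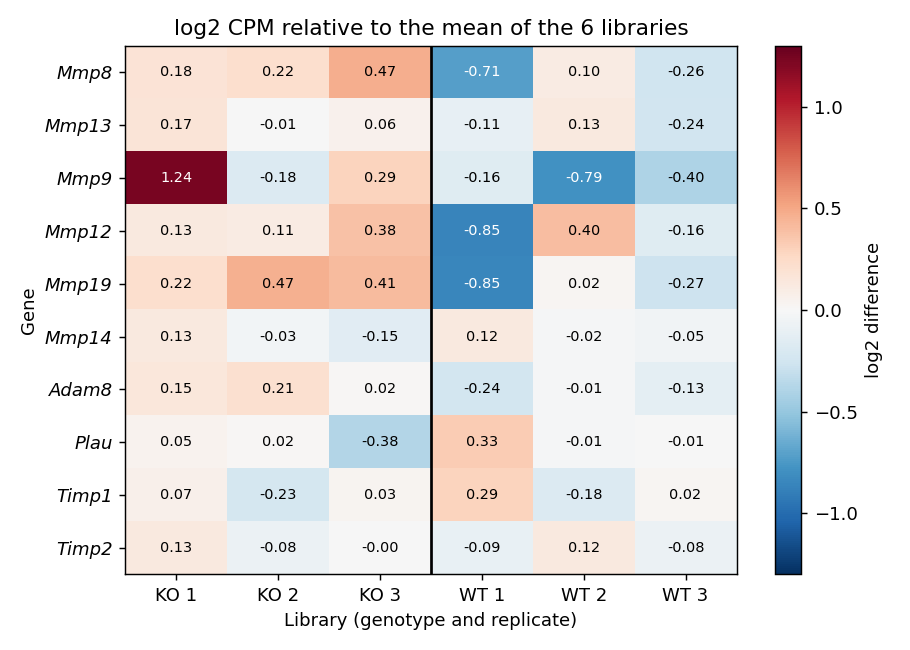
Log2 CPM of each gene relative to its mean over the 6 libraries, with KO libraries left of the line and WT libraries right of it. WT replicate 1 is lowest for Mmp8, Mmp12, Mmp19, Adam8 and Timp2 and highest for Plau and Timp1, and KO replicate 1 holds the largest departure, 1.24 for Mmp9.

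Libraries thus differed within each genotype. WT replicate 1 was the lowest of the 6 libraries for 5 of the 10 genes (Mmp8, Mmp12, Mmp19, Adam8 and Timp2) and the highest for 2 (Timp1 and Plau). On the log2 scale it lay 0.85 under the mean of the 6 libraries for Mmp12 and for Mmp19, and 0.71 under it for Mmp8. KO replicate 1 was the highest for 4 genes (Mmp9, Mmp13, Mmp14 and Timp2).

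Mmp14 (NCBI Gene 17387, chromosome 14, 54431612 to 54445364, plus strand) encodes a metalloproteinase anchored in the cell membrane, which cuts collagen and activates the precursor of gelatinase A, the product of Mmp2. It was at 778, 694 and 640 CPM in KO and 773, 700.4 and 686 CPM in WT. The groups overlapped throughout (log2 -0.032, SE 0.0896, edgeR adjusted p = 0.947). Timp2 (NCBI Gene 21858, chromosome 11, 118301069 to 118355740, minus strand) encodes the inhibitor that links Mmp14 to the Mmp2 precursor. It was at 506, 441 and 463 CPM in KO against 435, 505 and 440 CPM in WT, again overlapping (log2 0.031, SE 0.0858, edgeR adjusted p = 0.945). Mmp2 had 122.9, 94.0 and 126 CPM in KO and 90.8, 124 and 112 CPM in WT (log2 0.069).

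Mmp14 reads per Timp2 read were 1.54, 1.57 and 1.38 in KO and 1.78, 1.39 and 1.56 in WT. The difference of the mean log2 ratio was -0.067, with a two-sided exact permutation p of 0.6 (also 0.6 adjusted over the 2 ratios), and it was 0.024 without WT replicate 1. For Mmp14, Timp2 and their ratio the difference was smaller than the spread of the libraries. Mmp14, Timp1, Timp2 and Mmp2 are also expressed by fibroblasts. Markers of that cell type summed to 209.5, 256 and 306 CPM in KO and to 213, 331 and 237 CPM in WT, with overlap. Of 8 tested fibroblast markers 3 were positive and 5 negative, with a median log2 fold change of -0.033.

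Adam8 (NCBI Gene 11501, chromosome 7, 139978932 to 139992562, minus strand) encodes a protease of the myeloid cell surface that sheds membrane proteins. It had 1635, 1711 and 1492 CPM in KO, against 1253, 1464 and 1351 CPM in WT. The groups did not overlap, with KO replicate 3 only slightly above WT replicate 2. The shift was small but even (log2 0.25, SE 0.0868, edgeR unadjusted p = 0.0166, adjusted p = 0.701), and its range with 1 library left out was 0.20 to 0.31. Of 12 other ADAM and ADAMTS proteases tested, 7 were positive and 5 negative, with a median of 0.015, and 0 had an unadjusted p under 0.05. The sheddases Adam9, Adam10 and Adam17 had log2 values of -0.14 (SE 0.0740), -0.10 (SE 0.0677) and -0.12 (SE 0.0752), and Adamts10 had 0.24.

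Plau (NCBI Gene 18792, chromosome 14, 20836660 to 20843385, plus strand) encodes urokinase. Its levels were 276, 271 and 206 CPM in KO and 337, 265 and 266 CPM in WT. KO replicate 3 was the lowest and WT replicate 1 the highest, with the other 4 libraries close together. Among the 10 genes it had the most negative log2 fold change with all libraries (-0.21, SE 0.135, edgeR adjusted p = 0.780), which was -0.081 without WT replicate 1 and -0.077 without KO replicate 3. Plaur, the urokinase receptor, went the other way in sign, with 680, 737 and 799 CPM in KO and 443, 683 and 592 CPM in WT. The receptor groups overlapped by a few CPM between KO replicate 1 and WT replicate 2 (log2 0.37, SE 0.147, edgeR unadjusted p = 0.0357, adjusted p = 0.713), and its value was 0.21 without WT replicate 1.

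**Figure D4:**
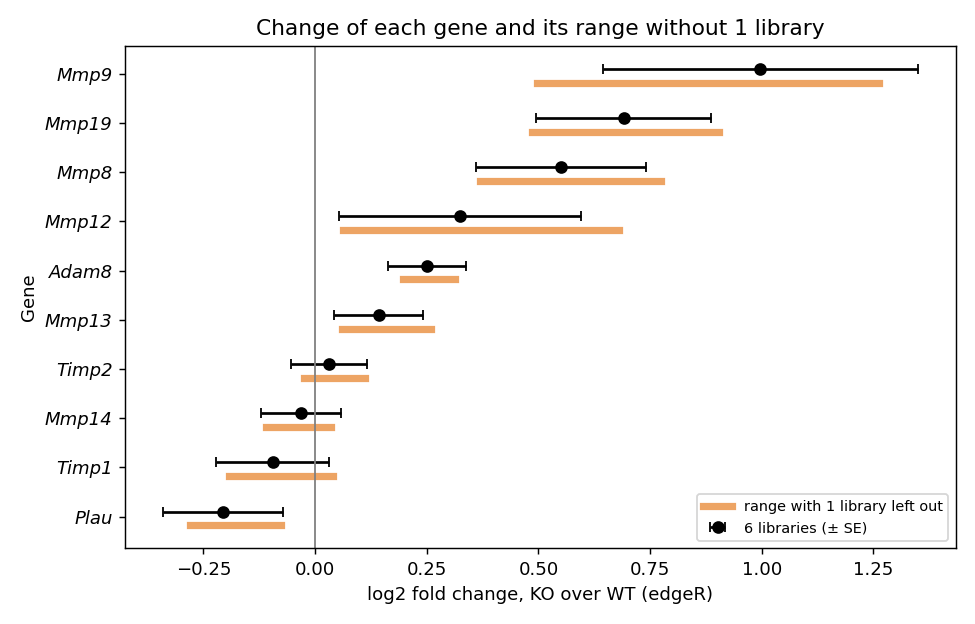
Log2 fold change of each of the 10 genes, KO over WT. Black points and bars are the edgeR value and its SE with 6 libraries, and orange bars span the values with 1 library left out. The orange bars cross 0 for Timp1, Timp2 and Mmp14, and the widest belong to Mmp9 and Mmp12.

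Related genes were read from the same fit, in lists also chosen with earlier results known. None of the members of these lists passed over all genes with edgeR, DESeq2 or limma-voom. Among 7 tested of 17 other matrix metalloproteinases, 4 had positive and 3 negative log2 fold changes, with a median of 0.069. Mmp10, stromelysin of the same chromosome 9 cluster, was the 1 member with an unadjusted p under 0.05. It had 26, 28 and 34 reads in KO and 21, 13 and 11 reads in WT, with no overlap (log2 0.98, SE 0.357, edgeR adjusted p = 0.701). Mmp11 (log2 0.37, SE 0.193), Mmp27 (0.77, SE 0.563) and Mmp25 (-0.28, SE 0.218) followed. Of 8 other inhibitors of metalloproteinases 2 were tested, Timp3 (log2 0.17, SE 0.160) and the membrane-anchored inhibitor Reck (0.27, SE 0.356), and 4 had 0 reads in all libraries.

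In the plasminogen activation system 8 of 11 tested genes were positive, with a median of 0.11, and 1, Plaur, had an unadjusted p under 0.05. After Plaur came Anxa2 (log2 0.12, SE 0.0843), S100a10 (0.12, SE 0.109), both of the complex that holds plasminogen at the cell surface, and the clearance receptor Lrp1 (0.12, SE 0.104). Among genes that activate, bind or take up matrix proteases 5 of 10 were positive and 5 negative, with a median of 0.021. Cd44, a hyaluronan receptor that can hold the Mmp9 protein at the surface, had 884, 940.5 and 892 CPM in KO and 731, 822 and 802 CPM in WT. It did not overlap between groups (log2 0.21, SE 0.0749, edgeR unadjusted p = 0.0206, adjusted p = 0.701). The convertases Furin (0.20, SE 0.104) and Pcsk7 (0.15, SE 0.0930) and the lipocalin Lcn2 (1.10, SE 0.784) were next by p.

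Of cathepsins and elastases 2 of 9 were positive and 7 negative, with a median of -0.098. Ctsl, a lysosomal cysteine protease, was the 1 with an unadjusted p under 0.05, at 2196, 1734 and 1866 CPM in KO against 1630, 1605 and 1403 CPM in WT (log2 0.32, SE 0.103, edgeR adjusted p = 0.701). Ctsz (-0.16, SE 0.0836), Ctsc (-0.19, SE 0.103) and the neutrophil protease gene Prtn3 (-0.70, SE 0.383, at most 1.01 CPM in any library) had the next smallest p.

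Transcription factors of the AP-1, ETS and NF-kB families, with Stat3 and Runx1, are known regulators of metalloproteinase genes. Of 16 tested, 10 were positive and 6 negative, with a median of 0.072. At an unadjusted p under 0.05, Jun and Fos were higher and Relb, Nfkb1 and Nfkb2 lower. Jun was at 612, 602 and 601 CPM in KO against 390, 535 and 459 CPM in WT (log2 0.39, SE 0.106, edgeR adjusted p = 0.701), without overlap. Fos was at 1294, 1459 and 1329 CPM in KO and 1008, 1234 and 1148 CPM in WT (log2 0.27, SE 0.0920). Nfkb2 (-0.21, SE 0.0844) and Relb (-0.25, SE 0.104) overlapped between the groups. WT replicate 1 was the lowest library for Jun and Fos, as it was for Mmp8, Mmp12, Mmp19 and Adam8. Jun and Fos also respond to handling and tissue digestion, and the part of that response in the protease results was not tested.

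**Figure D5:**
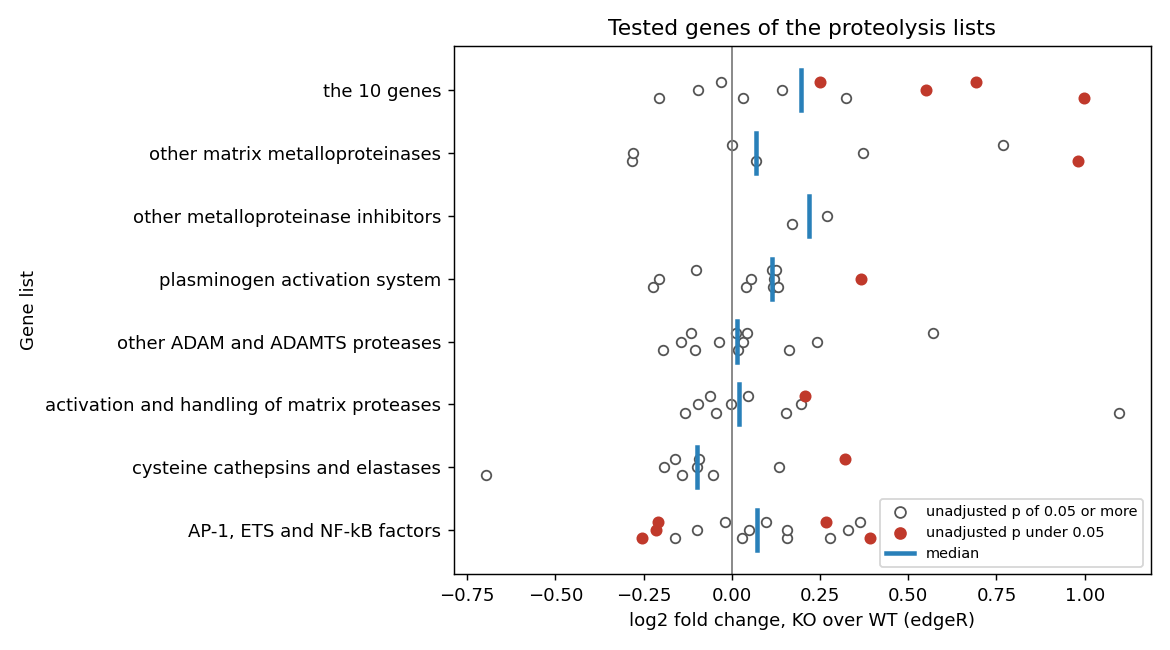
Log2 fold change, KO over WT, of every tested gene in the 10 genes described and in 7 related lists. Filled red points have an unadjusted p under 0.05, open points do not, and the blue line is the median of the list. Red points lie on the positive side in the metalloproteinase rows and on both sides among the transcription factors.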

How the data were processed

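Polyadenylated RNA was sequenced from TruSeq stranded libraries, per the labels' protocols. Trimmomatic, HISAT2, Cufflinks, HTSeq and mm10 stand in the submitters' processing notes with neither version nor role. The authors deposited raw read counts per gene, for which the sources used here give no annotation, strand setting or rule for multi-mapped reads.

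KO and WT were compared with edgeR 4.0.16 (R 4.3.3): filterByExpr (minimum count 10, minimum total 15) kept 12136 genes, scaling was by TMM, and a robust quasi-likelihood model had genotype as its only term. A call needed a Benjamini-Hochberg adjusted p under 0.05, taken over all tested genes. Log2 fold changes are KO over WT, with SE taken as their size over the root of F. Levels are CPM. Ratios were compared by exact permutation. The fit was tested on simulated data. The alternatives tried were scaling by RLE, by upper quartiles or by totals, other filters, DESeq2 1.42.0, limma-voom 3.58.1, no robust shrinkage, a replicate block and each library left out. Promoter windows came from RefSeq, positions from GENCODE M21. The 10 genes and all lists were chosen with earlier results of these data known. Named are the 10 genes, Trmt61a, up to 4 genes of each related list by smallest p, and the 3 genes most like the member of smallest p. Mmp2 and others whose values are given beside a result, among them Nfkb1, were chosen after their values were seen. Marker lists for macrophages, neutrophils, fibroblasts and epithelial cells are given as sums. T and NK cell markers summed to 20.7 to 55.0 CPM in KO and 23.0 to 32.6 CPM in WT, and dendritic cell markers to 21.0 to 39.8 CPM in KO and 18.2 to 30.5 CPM in WT. Both sums were highest in KO replicate 2, which was also the highest library for Mmp19 and Adam8. Of 8 tested T and NK cell markers 7 had positive log2 fold changes, with a median of 0.38. Of 6 tested dendritic cell markers 3 were positive and 3 negative, with a median of 0.0044. The part of such cells in the protease results was not tested.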

Additional observations from a re-analysis of the deposited data

How the results depend on the processing

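Mmp8, Mmp9, Mmp12, Mmp13, Mmp19 and Adam8 kept positive log2 fold changes and Plau a negative one under all 16 alternatives run for each. No alternative other than DESeq2 called any of the 10 genes. DESeq2 called 1 as higher, Mmp19 (log2 0.69, adjusted p = 0.0368), and 0 as lower. Values near 0 changed sign. Mmp14 was at 0.022 with quality weights, and with 1 library left out Mmp14 ran from -0.11 to 0.036, Timp1 from -0.19 to 0.041 and Timp2 from -0.025 to 0.11. Also with 1 library left out, the KO minus WT difference in the mean log2 ratio of Mmp14 to Timp2 ran from -0.15 to 0.024. The median of the 10 genes then ran from 0.093 to 0.29, that of the other matrix metalloproteinases from -0.044 to 0.27 and that of the plasminogen system from 0.043 to 0.10. The number of the 10 genes higher at an unadjusted p under 0.05 then ran from 2 to 5. The causes were not tested.

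Over all genes, 0 were called higher and 2 lower. Higher calls numbered 8 with DESeq2, 1 with quality weights and 0 to 3 with 1 library left out. Lower calls numbered 20 with DESeq2, 1 with RLE factors, upper-quartile factors, library totals, no filter or limma-voom, 0 with at least 1 CPM in 3 libraries and 0 to 2 with 1 library left out. Genes at an unadjusted p under 0.05 numbered 249 to 913 higher and 191 to 607 lower with 1 library left out, the fewest in both directions without WT replicate 1. At an adjusted p under 0.1 the counts stayed within 1.5 times. The median log2 fold change of all tested genes was -0.00088 in the main fit. It was -0.0028 with RLE factors, 0.0024 with upper-quartile factors and 0.0032 with library totals. With at least 1 CPM in 3 libraries it was 0.0059, and with no filter 0.013.

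The labels do not say whether replicate numbers pair the samples. Deviations of same-numbered libraries from their group means correlated at -0.057, -0.094 and -0.11. With the replicate number as a block, edgeR called 0 genes higher and 1 lower, and Mmp19 had an adjusted p of 0.410. The KO minus WT difference in the log2 ratio of Mmp9 to Timp1 was 0.98 with the block as well (exact sign-flip p = 0.25, the smallest that test can give here). Among the other 27 named genes, Lrp1 changed sign without KO replicate 1 (range with 1 library left out, -0.0058 to 0.19) and Adamts10 without KO replicate 2 (range -0.024 to 0.45), and the call on Trmt61a was lost in 8 of 16 alternatives. Depth limits Mmp10, with 11 to 34 reads a library, and Mmp8, with 158 to 373, more than the other 9 of the 10 genes, which had at least 610.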
